A study of Mus musculus with 24 samples.

Results

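Ffar2, Ffar3, Hcar2 and Or51e2 encode receptors for short-chain fatty acids, and their transcripts were followed across 24 mouse samples labelled as peritoneum. The genes were chosen by name from the known receptors for these acids, with earlier results of these data known. All 4 were present among the 56422 gene names of the expression table. Of these, 3 passed the low-expression filter, a TPM (transcript abundance scaled for transcript length and to a fixed library total) of at least 1 in at least 6 libraries, and Ffar3 did not. The samples come from a study of ovarian cancer spread on the peritoneum, with 6 control samples whose treatment is given as none. Of the others, 6 were treated with propionate, 6 with butyrate and 6 with the combination of both acids. The sources used here give no dose, route, time, strain, age or tumour line, and do not say whether anti-PD-1 or mannose, which the series title names, was part of any treatment. Whether each replicate was its own animal is not stated, so the p-values reflect only the variation among these samples, some of which may be technical.

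Short-chain fatty acids are made by gut bacteria from dietary fibre and reach host cells through carriers and through receptors coupled to G proteins. Ffar2 and Ffar3 respond to acetate, propionate and butyrate. Ffar2 signals through inhibitory G proteins and through the branch that activates phospholipase C, and it is known in neutrophils, adipocytes and enteroendocrine cells. Ffar3 signals through inhibitory G proteins and is known in peripheral neurons and enteroendocrine cells. Hcar2 is the receptor for niacin, beta-hydroxybutyrate and butyrate, and is known in adipocytes, macrophages and neutrophils. Or51e2 is an olfactory receptor that responds to acetate and propionate and is known in vascular smooth muscle and in glomus cells of the carotid body. These roles are background and were not measured in the samples.

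Ffar2 and Ffar3 lie near each other on chromosome 7 in the RefSeq annotation of build GRCm38.p6, on the same strand, with 1 gene, the long non-coding Gm32236, between them. The 250 bases before a start site of each gene are shown because 1 neighbour was measured in every library and the other was listed at 0 in most. They come from the RefSeq promoter table, read 5′ to 3′ on the minus strand, with the dinucleotide CG in capitals, at chr7:30823776-30824025 for the outermost of 4 Ffar2 starts and at chr7:30856179-30856428 for Ffar3.
Ffar2: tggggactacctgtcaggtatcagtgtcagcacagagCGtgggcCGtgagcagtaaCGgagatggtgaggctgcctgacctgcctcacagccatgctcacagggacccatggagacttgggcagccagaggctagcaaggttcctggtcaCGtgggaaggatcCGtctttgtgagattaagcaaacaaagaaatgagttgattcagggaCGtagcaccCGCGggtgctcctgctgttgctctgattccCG
Ffar3: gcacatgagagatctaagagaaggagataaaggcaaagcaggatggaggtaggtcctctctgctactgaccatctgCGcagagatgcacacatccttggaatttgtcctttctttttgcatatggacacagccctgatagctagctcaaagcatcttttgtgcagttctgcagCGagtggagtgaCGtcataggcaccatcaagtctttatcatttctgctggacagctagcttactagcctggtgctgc
The Ffar2 stretch held 9 CG dinucleotides and the Ffar3 stretch 3, against a median of 6 over 32851 promoters of the same length. At least 9 were present in 40.3% of all promoters and at most 3 in 37.8%, so neither count was unusual. The stretches before the other 3 Ffar2 starts held 3 each, the same count as Ffar3, so the count does not set the neighbours apart. The letters GAGGAAG, a form of a PU.1 motif, were searched on both strands and were absent from all 5 stretches of the pair, while 10.6% of all promoters held them. This describes these letters in these windows alone. Shorter forms of the motif were not searched. The letters GAGGAA, without the last G, do occur before some of the Ffar2 starts not printed here. The expression data were aligned to another build, mm39, and no promoter of Hcar2 or Or51e2 was used here.

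All 4 receptors were expressed at low levels. Mean Ffar2 TPM over the 24 libraries was above that of only 11.1% of tested genes, Hcar2 above 12.2% and Or51e2 above 3.57%. A TPM of at least 1 was reached by Ffar2 in 9 libraries, by Hcar2 in 15 and by Or51e2 in 9. For Ffar2 these were 1 control, 1 propionate, 3 butyrate and 4 combination libraries, so it passed the filter only with the combination group. TPM keeps no sequencing depth, so the counting error behind such values is unknown.

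Ffar2 had its highest values in the combination group, and only in some of its libraries. Control samples had a lowest, median and highest Ffar2 TPM of 0.37, 0.64 and 1.24, with a mean of 0.733 ± 0.300 (SD, n = 6). Propionate samples had 0.37, 0.64 and 1.12, with a mean of 0.657 ± 0.267 (SD, n = 6). Butyrate samples had 0.24, 0.965 and 1.39, with a mean of 0.842 ± 0.419 (SD, n = 6). The single-acid groups overlapped control. Combination replicates 1 to 6 had 3.04, 6.25, 1.03, 0.65, 11.9 and 0.81, with a mean of 3.95 ± 4.44 (SD, n = 6). Replicates 1, 2 and 5 lay above every other library of the study, and replicates 3, 4 and 6 lay within the range of control. By mean TPM the order was combination, butyrate, control and propionate, and the last 3 did not differ beyond their spread. The summed Ffar2 value rested on 6 transcript models, of which the leading 4 held 29.3, 22.5, 20.9 and 19.4% of the Ffar2 TPM. In combination replicate 5 these 4 models had 3.08, 1.76, 3.46 and 3.26 TPM, so its high value was not that of a single model.

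Hcar2 had the same 2 extreme libraries and a narrower spread elsewhere. Control samples had a lowest, median and highest Hcar2 TPM of 0.64, 0.89 and 1.15, with a mean of 0.892 ± 0.197 (SD, n = 6). Propionate samples had 0.82, 1.045 and 1.78, with a mean of 1.17 ± 0.382 (SD, n = 6). Butyrate samples had 0.88, 1.03 and 2.25, with a mean of 1.25 ± 0.517 (SD, n = 6). Both single-acid groups overlapped control, and the highest butyrate value was that of replicate 6. Combination replicates 1 to 6 had 1.26, 6.18, 1.41, 1.52, 8.47 and 1.47, with a mean of 3.39 ± 3.14 (SD, n = 6). Every combination library thus lay above every control library for Hcar2, with 4 of the 6 between 1.26 and 1.52. The order by mean was combination, butyrate, propionate and control, and the last 3 did not differ beyond their spread. Hcar2 was represented by 1 transcript model, and reads could be shared with its close paralog Hcar1.

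Or51e2 did not follow this order. Control samples had a lowest, median and highest Or51e2 TPM of 0.20, 0.795 and 1.63, with a mean of 0.873 ± 0.527 (SD, n = 6). Propionate samples had 0.41, 0.875 and 1.74, with a mean of 0.940 ± 0.517 (SD, n = 6). Butyrate samples had 0.75, 1.08 and 1.45, with a mean of 1.10 ± 0.268 (SD, n = 6). Combination replicates 1 to 6 had 1.12, 0.91, 0.45, 0.41, 0.55 and 0.96, with a mean of 0.733 ± 0.300 (SD, n = 6). All 4 groups overlapped, the order by mean was butyrate, propionate, control and combination, and no neighbours in it differed beyond their spread. The 2 combination libraries with the most Ffar2 and Hcar2 were inside the control range for Or51e2. The first of 4 transcript models held 78.6% of the Or51e2 TPM.

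Ffar3 was listed at 0 in 20 of 24 libraries. The other 4 were control replicate 1 at 0.04 TPM, control replicate 4 at 0.07, combination replicate 4 at 0.05 and combination replicate 5 at 0.24. Propionate and butyrate libraries were all listed at 0, and no fold change is given for Ffar3.

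**Figure D1:**
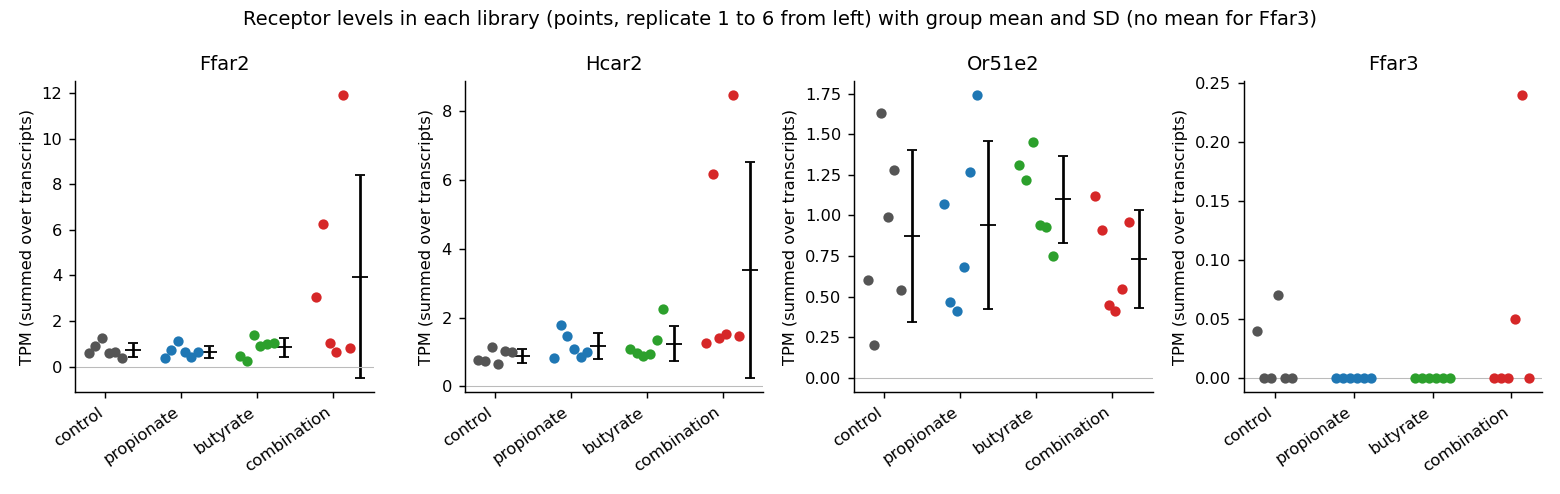
TPM of each receptor (vertical axis, summed over transcripts, scale differs by panel) in the 4 groups, with 1 point per library in order of replicate from the left, and bars for the mean and SD of 6 libraries except for Ffar3. Combination replicates 2 and 5 stand at 6.25 and 11.9 TPM for Ffar2 and at 6.18 and 8.47 for Hcar2, while the Or51e2 groups overlap and most Ffar3 points are at 0.

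Combination replicate 5 differed from the other libraries in its tissue content, and replicate 2 in part. Replicate 5 had 221.5 TPM of Ptprc, the pan-leukocyte gene encoding CD45, against a median of 14.3 over all libraries, and it had 68.8 TPM of the T cell gene Cd3e and 275 of the B cell gene Cd79a. The mesothelial gene Wt1 was listed at 0 in it, and its skeletal muscle score was 1.06, against a next lowest of 10.1. A list score here is the mean log2(TPM + 1) of the tested genes of a list. Wt1, a marker of the labelled tissue, was at 131 TPM or more in 10 libraries and at 71.4 or less in 14. Krt8, of the carcinoma epithelium list, was at 95.6 TPM or more in those 10 libraries. In the 14 it was at 47.8 or less, except for 123 in combination replicate 5. Whether Wt1 follows mesothelial or tumour cells here was not tested. Adipoq, the adipocyte hormone adiponectin, was at 604 and 1529 TPM in combination replicates 2 and 5, against a median of 133 over all libraries. For the comparisons of the combination group, values without these 2 libraries are given beside those with them. In such bulk samples, fewer cells of a type and less RNA per cell cannot be told apart.

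The combination was compared with control first. Differences are log2 fold changes on the log2(TPM + 1) scale, which understates changes of such low genes, and the test is limma's with Benjamini-Hochberg adjustment over 15163 genes. Ffar2 was 1.08 ± 0.36 (SE) above control, with a 95% interval of 0.33 to 1.84, an unadjusted p of 0.00692 and an adjusted p of 0.300 in limma. It was higher in 30 of the 36 pairs of a combination and a control library. Hcar2 was 0.95 ± 0.29 (SE) above control, with an interval of 0.35 to 1.54, an unadjusted p of 0.00318 and an adjusted p of 0.265 in limma. It was higher in 36 of 36 pairs. Neither receptor passed the threshold of 0.05 after adjustment, and no gene of the 15163 did in this comparison (0% called). At an unadjusted p under 0.05 in limma, 2 of the 3 tested receptors were higher, against 6.2% of all tested genes. Ffar2 was among the tested genes only through the combination group, so its part in this count is not taken as support. Hcar2 was among the 0.633% of tested genes whose combination libraries all lay above all control libraries. Or51e2 differed by -0.08 ± 0.19 (SE), with an interval of -0.48 to 0.31 and an adjusted p of 0.864 in limma, and was higher in 14 of 36 pairs. The median difference over all tested genes was -0.12. That of the 3 receptors was 0.95, the Hcar2 value, which depends on counting Ffar2 and is not taken as support.

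Combination replicates 2 and 5 carried much of the size of these differences. With both left out, the Ffar2 difference from control was 0.38 ± 0.23 (SE) and that of Hcar2 was 0.36 ± 0.16 (SE), each with an adjusted p of 0.683 in limma. The remaining 4 combination libraries had a mean of 1.38 ± 1.12 TPM (SD, n = 4) for Ffar2 and 1.42 ± 0.113 (SD, n = 4) for Hcar2. The 4 Hcar2 values lay above all 6 control values, which leaving out the highest values could not have changed. With libraries scaled by median of ratios instead of TPM alone, the lowest combination value of Hcar2 was 1.11 and the highest control value 1.38, so that the groups overlapped, with 34 of 36 pairs higher.

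Adipocyte genes and the genes of several leukocyte types also had higher values in the combination libraries. All 8 tested neutrophil genes were above control, with a median difference of 1.03 and 5 at an unadjusted p under 0.05, against 6.2% of all tested genes. So were 5 of 5 NK and cytotoxic genes (median 1.28, 4 at an unadjusted p under 0.05), 13 of 13 T cell genes (1.22, 5) and 16 of 16 pan-leukocyte genes (0.79, 6). Fewer genes reached that level in the other leukocyte lists. These were monocyte and macrophage (median 0.17, 1 of 14 genes), dendritic cell (0.53, 1 of 10), mast cell and eosinophil (0.29, 1 of 7) and B cell (1.10, 0 of 5). The medians without combination replicates 2 and 5 were 0.80 for neutrophil, 0.93 for NK and cytotoxic, 0.49 for T cell, 0.36 for pan-leukocyte and 0.60 for adipocyte genes, with 4, 2, 3, 0 and 1 genes at an unadjusted p under 0.05. The neutrophil score was 1.02 to 1.98 in control and 1.74 to 3.65 in the combination group. Of the 6 neutrophil genes below the filter, Ly6g was listed at 0 in 22 libraries, including combination replicates 2 and 5, and Camp was at 0 in 15 and at 3.18 TPM in replicate 5. In those 2 libraries Cxcr2 was at 2.27 and 7.89 TPM and Ltf at 6.98 and 34.0, while Mmp8 was at 0.39 and 0.42 and Cd177 at 0.25 and 0.37. S100a9, a calcium-binding alarmin of neutrophils, was at 66.0 and 61.4 TPM in combination replicates 2 and 5, against a median of 5.11 over all libraries. Each of the 12 adipocyte genes also exceeded control, by a median of 1.57, with all 12 at an unadjusted p under 0.05. The adipocyte score was 4.11 to 5.42 in control and 4.72 to 8.80 in the combination group. None of these genes passed after adjustment in limma. With the neutrophil score as a covariate, the Ffar2 difference was -0.12 ± 0.34 (SE), with an adjusted p of 0.805 in limma, and that of Hcar2 was 0.21 ± 0.33 (SE), with an adjusted p of 0.633. With the adipocyte score as a covariate, the differences were 0.11 ± 0.23 (SE) for Ffar2 and 0.26 ± 0.22 (SE) for Hcar2, each with an adjusted p of 0.999 in limma. With the pan-leukocyte score, Ffar2 kept 0.81 ± 0.36 (SE), with an adjusted p of 0.0642 in limma. Hcar2 kept 0.70 ± 0.27 (SE) and had an adjusted p of 0.0363 in that limma fit, which passed, but that fit called 890 genes higher and 7121 lower of the 15163 tested. A score that differs between groups takes part of the group difference with it by construction, and the part of either cell type in the receptor values was not tested.

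**Figure D2:**
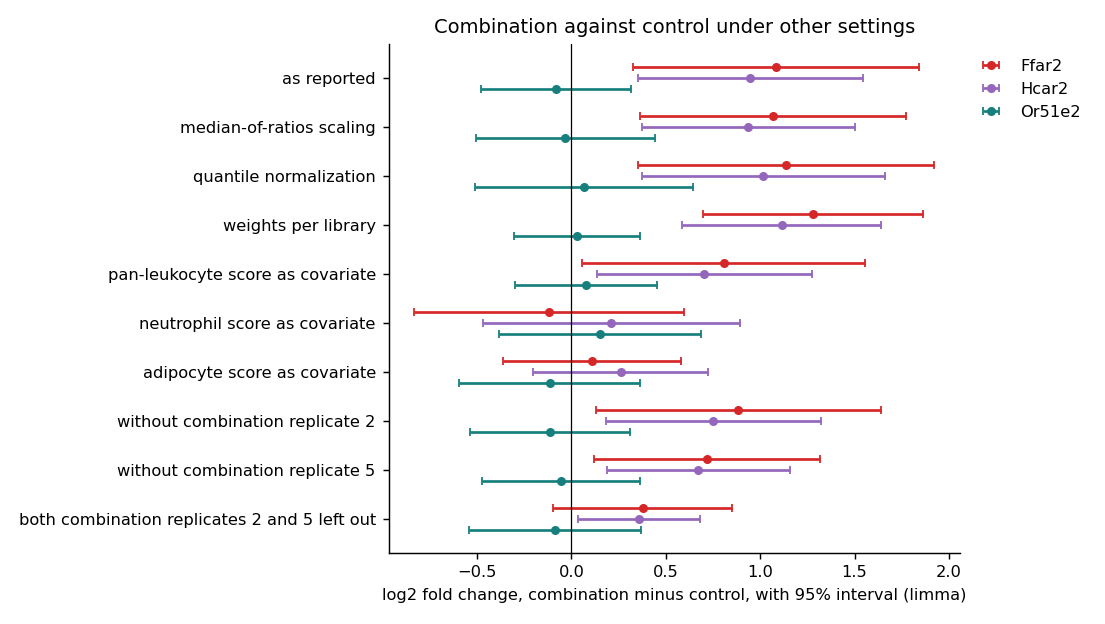
Difference between combination and control (horizontal axis, log2 fold change on the log2(TPM + 1) scale, with 95% interval from limma) for 3 receptors under the reported fit and 9 other settings, 1 row each. Ffar2 stands at 1.08 as reported, at 0.38 with combination replicates 2 and 5 left out and at -0.12 with the neutrophil score as a covariate, while the Or51e2 intervals include 0 in every row.

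With propionate alone, the interval of each of the 3 tested receptors included 0, and Hcar2 in propionate replicates 2 and 3 (1.78 and 1.48 TPM) and Or51e2 in replicate 6 (1.74) lay above the highest control values. Ffar2 differed from control by -0.06 ± 0.36 (SE), with an interval of -0.82 to 0.69 and an adjusted p of 0.914 in limma. Hcar2 differed by 0.19 ± 0.29 (SE), with an interval of -0.41 to 0.78 and an adjusted p of 0.671, and it was higher in 26 of 36 pairs. Or51e2 differed by 0.06 ± 0.19 (SE), with an interval of -0.34 to 0.45 and an adjusted p of 0.850 in limma. None of the 3 had an unadjusted p under 0.05, against 0.435% of tested genes higher and 9.13% lower. The median over all genes was -0.30 in this comparison on the TPM scale and -0.003 by median of ratios, where the Ffar2 difference was positive, at 0.054.

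Butyrate alone gave differences of the same small size. Ffar2 differed from control by 0.07 ± 0.36 (SE), with an interval of -0.68 to 0.83 and an adjusted p of 0.892 in limma. Hcar2 differed by 0.23 ± 0.29 (SE), with an interval of -0.37 to 0.82 and an adjusted p of 0.553. Or51e2 differed by 0.20 ± 0.19 (SE), with an interval of -0.19 to 0.60 and an adjusted p of 0.423 in limma. No receptor had an unadjusted p under 0.05, whereas 35.1% of tested genes were lower and 1.19% higher at that level. The median over all genes was -0.38, so the receptors stood above it in butyrate-treated samples, without a test of that distance. By median of ratios that median was -0.01, and the receptor differences were 0.25 for Ffar2, 0.45 for Hcar2 and 0.39 for Or51e2.

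Propionate and butyrate, which differ by 1 carbon in chain length, form 1 pair of compounds, and their doses are not known to match. Butyrate minus propionate was 0.13 ± 0.36 (SE) for Ffar2, with an interval of -0.62 to 0.89. It was 0.04 ± 0.29 (SE) for Hcar2, with an interval of -0.55 to 0.64, and 0.15 ± 0.19 (SE) for Or51e2, with an interval of -0.25 to 0.54. All 3 had an adjusted p of 1 in limma, and none had an unadjusted p under 0.05, against 0.165% of genes higher and 0.541% lower. The intervals leave room for a difference of over 0.5 on the log2 scale in each receptor, so the acids are not shown to act alike on them.

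Against each single acid the combination gave positive Ffar2 and Hcar2 differences that rested largely on replicates 2 and 5, the same combination libraries as above. Ffar2 was 1.15 ± 0.36 (SE) above propionate, with an interval of 0.39 to 1.90 and an adjusted p of 0.507 in limma, and higher in 31 of 36 pairs. Hcar2 was 0.76 ± 0.29 (SE) above propionate, with an interval of 0.17 to 1.36 and an adjusted p of 0.531, and higher in 29 pairs. At an unadjusted p under 0.05, 2 of 3 receptors were higher, against 8.43% of tested genes. Ffar2 was 1.01 ± 0.36 (SE) above butyrate, with an interval of 0.26 to 1.77, and Hcar2 was 0.72 ± 0.29 (SE) above it, with an interval of 0.13 to 1.32. Both had an adjusted p of 0.317 in limma, and again 2 of 3 were higher at an unadjusted p under 0.05, against 14.6% of tested genes. Since Ffar2 passed the filter only with the combination group, its part in either count is not taken as support. With replicates 2 and 5 left out, Ffar2 was 0.44 ± 0.23 (SE) above propionate and 0.31 ± 0.23 (SE) above butyrate, with adjusted p of 0.997 and 0.733 in limma. Hcar2 was then 0.17 ± 0.16 (SE) above propionate and 0.13 ± 0.16 (SE) above butyrate, with the same adjusted p values to 3 digits. Or51e2 differed from propionate by -0.14 ± 0.19 (SE) and from butyrate by -0.29 ± 0.19 (SE), with adjusted p of 0.786 and 0.377 in limma, and it was higher than butyrate in 7 of 36 pairs.

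The interaction asks whether the response to both acids differs from the sum of the single responses. It was 1.08 ± 0.52 (SE) for Ffar2, with an interval of 0.01 to 2.14, an unadjusted p of 0.0484 and an adjusted p of 0.139 in limma. It was 0.53 ± 0.41 (SE) for Hcar2, with an adjusted p of 0.288, and -0.34 ± 0.27 (SE) for Or51e2, with an adjusted p of 0.304. At an unadjusted p under 0.05, 1 of 3 receptors was higher, against 34.8% of all tested genes, and the median interaction over all genes was 0.62. The Ffar2 value is read as nothing particular to the receptor, and without combination replicates 2 and 5 it was 0.37 ± 0.30 (SE), with an adjusted p of 0.357 in limma.

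**Figure D3:**
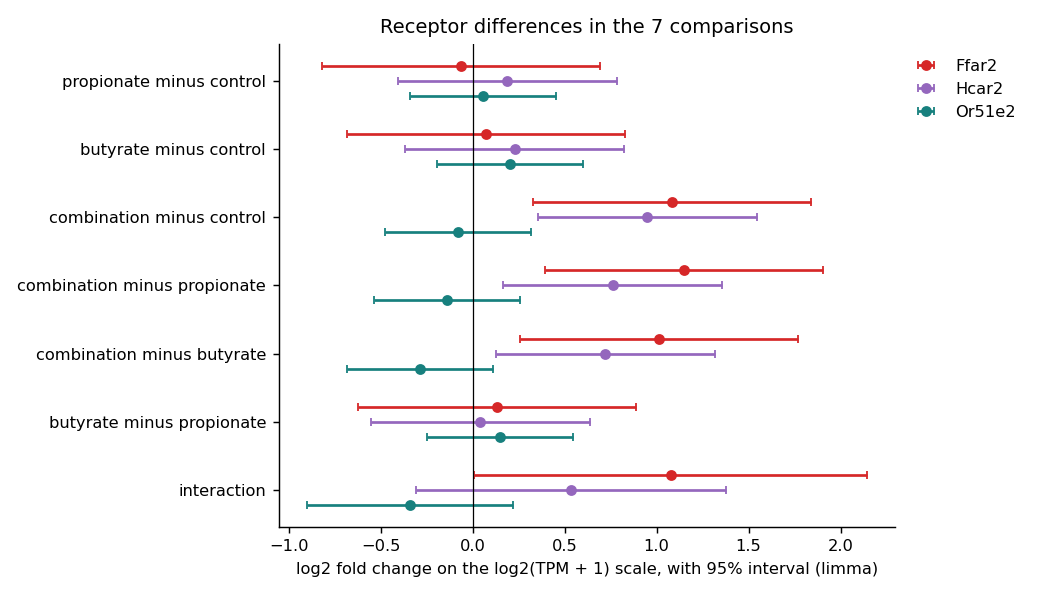
Difference of each tested receptor (horizontal axis, log2 fold change on the log2(TPM + 1) scale, points with 95% intervals from limma) in the 7 comparisons, 1 row each. Ffar2 and Hcar2 lie between 0.72 and 1.15 in the 3 comparisons of the combination with another group, and all single-acid intervals include 0.

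Over the 24 libraries, Ffar2 was related to the neutrophil and adipocyte scores, Hcar2 to the adipocyte score, and Or51e2 inversely to several leukocyte scores. These relations were computed for 3 receptors and 13 lists, 39 in all, by permutation with Benjamini-Hochberg adjustment. Ffar2 and the neutrophil score had a Pearson r of 0.853 (permutation p of 1e-05, the smallest possible here, adjusted p of 0.000195) and a Spearman rho of 0.642 (permutation p of 0.00088, adjusted p of 0.0107). Without combination replicates 2 and 5, the libraries farthest from the median score, r was 0.603 (adjusted permutation p of 0.0253) and rho 0.535 (adjusted permutation p of 0.0608). Within the 4 groups rho was -0.429 in control, 1 in propionate, 0.771 in butyrate and 0.886 in combination (6 libraries each, exact permutation), and none passed adjustment over 156 such relations. The positive sign was thus not shared by the control samples.

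Ffar2 and the adipocyte score had an r of 0.897 (permutation p of 1e-05, adjusted p of 0.000195) and a rho of 0.630 (permutation p of 0.00117, adjusted p of 0.0107). Without combination replicates 2 and 5 these were 0.597 (adjusted permutation p of 0.0253) and 0.520 (adjusted permutation p of 0.0608). Within groups, rho was 0.600 in control, 0.371 in propionate, 0.429 in butyrate and 0.829 in combination, and none passed adjustment in the exact permutation test. With the pan-leukocyte score, Ffar2 had an r of 0.595 (permutation p of 0.00907, adjusted p of 0.0236) but a rho of 0.304 (permutation p of 0.152, adjusted p of 0.312). Without those 2 libraries r over the pooled libraries was 0.103, so the pooled relation rested on them. The same held for T cells, where r was 0.693 (permutation p of 0.00894, adjusted p of 0.0236) over 24 libraries and 0.0213 without the 2.

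Hcar2 and the adipocyte score had an r of 0.864 (permutation p of 4e-05, adjusted p of 0.00052) and a rho of 0.541 (permutation p of 0.00694, adjusted p of 0.0328). Without combination replicates 2 and 5, r was 0.447 (adjusted permutation p of 0.110) and rho 0.404 (adjusted permutation p of 0.182), so the call rested on them. The call by rho was also lost without either of these alone (0.478 each), or without control replicate 3 (0.517), propionate replicate 3 (0.508), butyrate replicate 6 (0.485) or combination replicate 6 (0.508). Within groups, rho was -0.0857 in control, 0.200 in propionate, 0.714 in butyrate and 0.600 in combination (exact permutation, none passing). With the neutrophil score, Hcar2 had an r of 0.765 (permutation p of 0.00027, adjusted p of 0.00263) and a rho of 0.424 (permutation p of 0.0407, adjusted p of 0.106). Without the 2 libraries r was 0.272 and rho 0.251, and within groups rho was -0.886 in control, 0.943 in propionate, -0.486 in butyrate and 0.543 in combination. Groups of untreated and propionate-treated samples thus had opposite signs, a difference that was not tested. With the monocyte and macrophage score over 24 libraries, Hcar2 had an r of 0.207 (permutation p of 0.337, adjusted p of 0.387). The rho was 0.233 (permutation p of 0.272, adjusted p of 0.462).

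**Figure D4:**
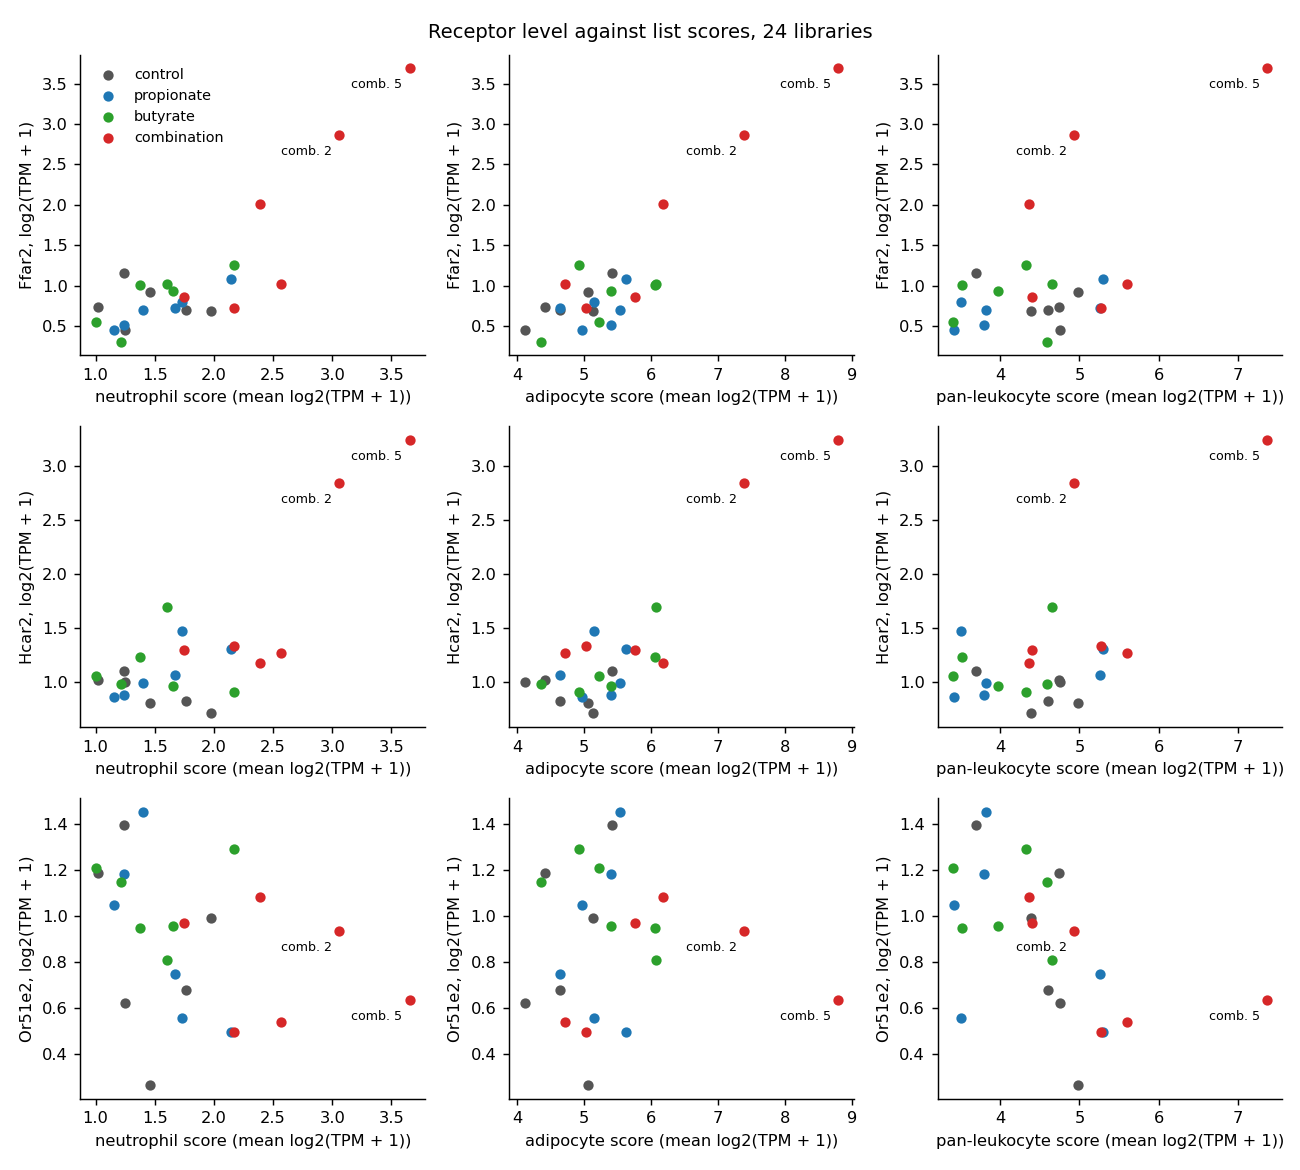
Level of each receptor (vertical axis, log2(TPM + 1)) against gene list scores (horizontal axis, mean log2(TPM + 1) of the list), 1 point per library coloured by group. Combination replicates 2 and 5 lie at the upper right for Ffar2 and Hcar2, where r with the neutrophil score is 0.853 and 0.765 with them and 0.603 and 0.272 without them.

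Or51e2 was lower where leukocyte transcript was higher. It had an r of -0.548 (permutation p of 0.00438, adjusted p of 0.0171) and a rho of -0.652 (permutation p of 0.00053, adjusted p of 0.0107) with the pan-leukocyte score. With the monocyte and macrophage score r was -0.577 (permutation p of 0.00327, adjusted p of 0.0142) and rho -0.628 (permutation p of 0.00117, adjusted p of 0.0107). Without combination replicates 2 and 5 the rho values were -0.621 and -0.573, each with an adjusted permutation p of 0.0515. Without the 2 libraries farthest from the median of each score, r was -0.551 and -0.608. Within groups, rho with the pan-leukocyte score was -0.829 in control, -0.314 in propionate, -0.314 in butyrate and -0.771 in combination (exact permutation, none passing). All 4 signs were negative.

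Or51e2 was positively related to the smooth muscle score, with an r of 0.598 (permutation p of 0.00219, adjusted p of 0.0107) and a rho of 0.533 (permutation p of 0.00822, adjusted p of 0.0328). Without the 2 libraries farthest from the median score r was 0.547, and the call by rho was lost on leaving out any of 8 single libraries, with rho from 0.469 to 0.503. Within groups rho was 0.829 in control, 0.429 in propionate, -0.257 in butyrate and 0.771 in combination (exact permutation, none passing). Des, Smtn and Synpo2 of that list were at 23.1, 15.2 and 14.5 TPM in combination replicate 5, their lowest values in the study. Skeletal muscle genes were also lowest in that library. Acta2, Myh11, Cnn1 and Tagln of the same list were at 150.5, 26.94, 21.96 and 96.48 TPM there, their highest values. Lmod1 and Actg2, at 3.87 and 6.21 TPM, were at neither extreme. The smooth muscle score of that library thus averages genes of opposed direction. With the skeletal muscle score Or51e2 had a rho of 0.50 (permutation p of 0.0135, adjusted p of 0.0478) and an r of 0.333 (permutation p of 0.0994, adjusted p of 0.138). It was negatively related to the mesothelium score, with a rho of -0.529 (permutation p of 0.00841, adjusted p of 0.0328) and an r of -0.519 (adjusted permutation p of 0.0247), and to the carcinoma epithelium score, with a rho of -0.618 (permutation p of 0.00137, adjusted p of 0.0107). In all, 8 of its 13 relations passed by rho, against 2 for Ffar2 and 1 for Hcar2, and without combination replicates 2 and 5 the count was 0 for each receptor, with 8, 2 and 0 by Pearson r. Since Wt1 divides the libraries, the relations were also taken on each side of a Wt1 TPM of 100. The libraries above it were control replicates 1, 2, 4, 5 and 6, propionate 3 and 4, butyrate 2 and combination 3 and 4. The sides thus hold different mixes of groups, and the lower side kept combination replicate 2. In the 10 libraries above this Wt1 level, rho was -0.681 with the pan-leukocyte score, -0.644 with the monocyte and macrophage score and 0.778 with the smooth muscle score. In the 13 below it, without combination replicate 5, the same values were -0.225, -0.126 and -0.0879. None passed on either side by permutation, and the Or51e2 values were smaller in size in the libraries low in Wt1, a difference that was not tested. With the mesothelium score, rho was -0.571 above and -0.297 below, and without the 2 libraries farthest from its median r over both sides was -0.394 (adjusted permutation p of 0.211).

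Ffar2 had positive values with leukocyte genes on each side of that Wt1 level. Its rho with the pan-leukocyte score was 0.766 in the 10 libraries above (permutation p of 0.0125, adjusted p of 0.0699) and 0.676 in the 13 below (permutation p of 0.0131, adjusted p of 0.138), against 0.304 over all 24. The r values were 0.661 (adjusted permutation p of 0.124) and 0.732 (adjusted permutation p of 0.0211). With the neutrophil score, rho was 0.444 above and 0.703 below. The sides hold different mixes of groups, and the difference between the pooled and the divided values was not tested.

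**Figure D5:**
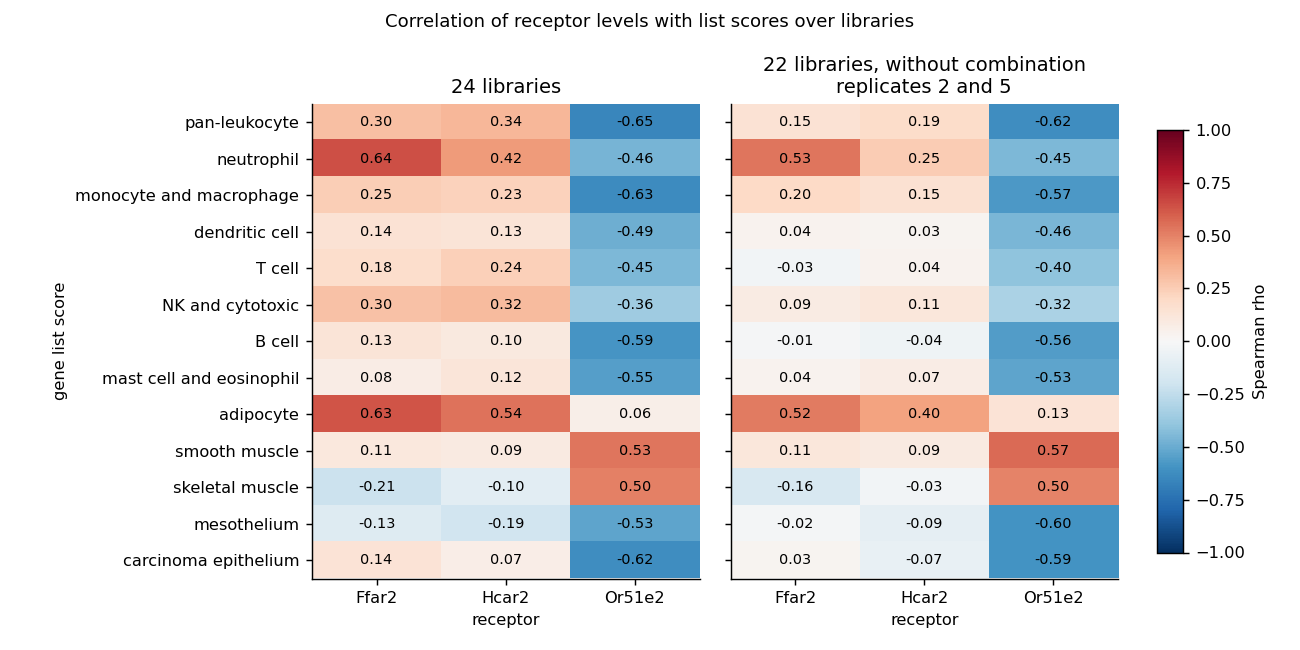
Spearman rho of receptor level with 13 gene list scores (rows) for Ffar2, Hcar2 and Or51e2 (columns), over 24 libraries on the left and over 22 without combination replicates 2 and 5 on the right. Colour and printed value give rho, which reaches 0.64 for Ffar2 with neutrophil genes and -0.65 for Or51e2 with pan-leukocyte genes.

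Ffar2 and Hcar2 followed each other over the libraries, with an r of 0.878 (permutation p of 0.00019, adjusted p of 0.00114 over 6 relations) and a rho of 0.580 (permutation p of 0.00333, adjusted p of 0.0200). Without combination replicates 2 and 5, r was 0.303 (adjusted permutation p of 0.445) and rho 0.454 (adjusted permutation p of 0.103). The calls after adjustment rested on those libraries, while rho fell less than r.

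The genes most like each receptor in rank over the 24 libraries were sought among those whose mean log2(TPM + 1) was 1 or more. For Ffar2, out of 14089 genes, they were Ust, Nnat, Ntrk2, Serpina3c, Steap4, Pxmp4, Sash1 and Ugt1a6b, with rho from 0.785 down to 0.745. Nnat encodes neuronatin, Ntrk2 a neurotrophin receptor and Steap4 a metalloreductase of adipose tissue. Steap4 was at 81.3 and 82.2 TPM in combination replicates 2 and 5, against a median of 32.3. For Hcar2 they were Sh2d3c, Timd4, Akap12, Enpp2, Ltb4r1, Vnn3, Cyth1 and Ddt, with rho from 0.737 to 0.703. Timd4 encodes a phosphatidylserine receptor of resident macrophages and Ltb4r1 the leukotriene B4 receptor of neutrophils. For Or51e2, out of 14090 genes, they were 9430073C21Rik, Gm42790, Gm50253, Myh7b, Gm28876, Neat1, Myo5c and Napb, with rho from 0.894 to 0.847. Myh7b encodes a slow muscle myosin heavy chain and Neat1 a nuclear long non-coding RNA. Ugt1a6b belongs to a multigene family, and its reads could be shared between copies.

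Other receptors for metabolites also had higher values in the combination group. Of 12 such genes, 7 were tested, and all 7 were above control in the combination group, with a median difference of 0.66 against -0.12 over all tested genes. At an unadjusted p under 0.05, 3 of the 7 were higher, against 6.2% of all tested genes, and none passed after adjustment in limma. With combination replicates 2 and 5 left out, 6 of 7 were above control, with a median of 0.24 and 0 at an unadjusted p under 0.05. Sucnr1, the succinate receptor, was at 3.90 ± 4.71 TPM (SD, n = 6) in combination and 0.547 ± 0.252 (SD, n = 6) in control, a difference of 1.21 ± 0.39 (SE) with an adjusted p of 0.282 in limma. A TPM of at least 1 was reached by Sucnr1 in 0 control, 2 propionate, 2 butyrate and 4 combination libraries. Sucnr1 thus passed the filter only with the combination group, and its part in the counts above is not taken as support. Hcar1, the lactate receptor and a paralog of Hcar2, was at 6.09 ± 8.24 TPM (SD, n = 6) against 1.50 ± 0.618 (SD, n = 6), and its difference of 0.86 ± 0.45 (SE) had an adjusted p of 0.508 in limma. Combination replicates 2 and 5 had 5.96 and 12.6 TPM of Sucnr1 and 8.29 and 21.9 of Hcar1, the same 2 libraries that were high for Ffar2. Without them the differences were 0.48 ± 0.25 (SE) for Sucnr1 and 0.005 ± 0.29 (SE) for Hcar1. Gpr132, an acid- and lipid-sensing receptor, differed by 0.90 ± 0.43 (SE) with and 0.40 ± 0.32 (SE) without them, and the adenosine receptor Adora2a by 0.66 ± 0.29 (SE) and 0.22 ± 0.23 (SE). The long-chain fatty acid receptor Ffar4 differed by 0.48 ± 0.34 (SE) with and -0.01 ± 0.25 (SE) without them, the olfactory receptor Or51e1 by 0.27 ± 0.17 (SE) and Gpr35 by 0.28 ± 0.30 (SE). Ffar1, a receptor for medium- and long-chain fatty acids, was listed at 0 in 13 libraries and was at 4.49 TPM in combination replicate 5. Oxgr1, the oxoglutarate receptor, was listed at 0 in all 24.

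Genes acting below the receptors had no common direction in the combination group against control. Of 21 G protein, receptor kinase and arrestin genes, 19 were tested, with 10 above and 9 below control in the combination group and a median difference of 0.02. Gnai1, an inhibitory alpha subunit, was the 1 gene of these with an unadjusted p under 0.05 and differed by 1.24 ± 0.38 (SE), with an adjusted p of 0.267 in limma. It was at 33.5 and 65.6 TPM in combination replicates 2 and 5, against a median of 7.99 over all libraries, and without them it differed by 0.52 ± 0.25 (SE). The next by p were Gng2 at 0.57 ± 0.34 (SE), Gnas at -0.14 ± 0.10 (SE) and Grk3 at 0.33 ± 0.25 (SE), and without the 2 libraries at 0.38 ± 0.36, -0.08 ± 0.09 and 0.02 ± 0.19 (SE). Against propionate 16 of the 19 were above, with 5 at an unadjusted p under 0.05, and against butyrate 17, with 6, where 8.43 and 14.6% of all tested genes were higher. In the interaction 17 of 19 were positive, with 13 at an unadjusted p under 0.05, against 34.8% of all tested genes. Of 13 adenylyl cyclase and phospholipase C beta genes, 11 were tested, with 6 above and 5 below and a median of 0.12. Adcy5, a cyclase, differed by 0.56 ± 0.25 (SE), with an adjusted p of 0.456 in limma, and was the 1 of the 11 with an unadjusted p under 0.05. It was at 3.35 and 7.84 TPM in combination replicates 2 and 5 and differed by 0.12 ± 0.16 (SE) without them. Plcb4, Plcb2 and Plcb1, phospholipases C beta, differed by 0.41 ± 0.21, 0.58 ± 0.34 and 0.31 ± 0.21 (SE), and without those libraries by 0.32 ± 0.23, 0.23 ± 0.26 and 0.15 ± 0.20 (SE). In the single-acid groups 16 of 19 G protein and arrestin genes were below control with propionate and 15 of 19 with butyrate, where the medians over all genes were also negative. Of these, 1 and 6 had an unadjusted p under 0.05, against 9.13 and 35.1% of all tested genes lower, and none passed after adjustment in limma.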

How the data were processed

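RNA was extracted with TRIzol and polyadenylated RNA was sequenced as stranded libraries, per the labels' protocols. The submitters' processing notes name fastp, HISAT2, StringTie and the build mm39, without settings. The authors deposited TPM per transcript, scaled to 1000000 per library, for 149132 transcripts. Depth is unknown.

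TPM was summed by gene name, and 1001 unnamed transcripts (0.174 to 0.470% of TPM) were left out. A gene entered the tests if 6 or more libraries had a TPM of 1 or higher, which left 15163 genes, analysed as log2(TPM + 1) in limma 3.58.1 (R 4.3.3, intensity trend, robust moderation), with all 24 libraries in 1 fit and 7 comparisons. P-values are two-sided, with Benjamini-Hochberg adjustment. Correlations used 100000 permutations, or all 720 pairings within a group (scipy 1.17.1), two-sided. The fit was tested on simulated data.

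The receptors and the gene lists were chosen with earlier results of these data known. The named genes were the 4 receptors, the 8 genes most like each tested receptor, up to 4 genes of smallest p per pathway list, the related metabolite receptors detected in enough libraries, and a set of tissue markers. Oxgr1, Ffar1, Ly6g and Camp were named after their values were seen. Other settings tried were another pseudocount, filters, scalings, weights per library, replicate blocks, score covariates and leaving out libraries. The covariate fits with neutrophil and adipocyte scores, the removal of combination replicates 2 and 5 together and the division by Wt1 were chosen after seeing the data.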

Additional observations from a re-analysis of the deposited data

Results flagged for a closer look

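Of 66 groups of 6 values examined, 10 had a highest or lowest sample separated from its neighbour by a gap above Dixon's 95% critical value. Chance alone gives about 1 in 20 groups, and the 66 share libraries.

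For the receptors, Ffar3 in combination replicate 5 was at 0.24 TPM, against 0.05 in the next library of its group. Hcar2 in butyrate replicate 6 was at 2.25 TPM, against 1.35 in the next.

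The other 8 were list scores. Combination replicate 5 had a T cell score of 5.87 (next 2.41), a B cell score of 6.80 (next 1.92) and a skeletal muscle score of 1.06 (next 10.9). Control replicate 3 was lowest in its group for the dendritic cell score at 1.06 (next 1.74), the B cell score at 0.386 (next 1.24), the mesothelium score at 1.07 (next 5.02) and the carcinoma epithelium score at 0.439 (next 3.52). Control replicate 2 was lowest for the smooth muscle score at 4.26 (next 4.84), and it also had the lowest Or51e2 value of the study, 0.20 TPM. The highest Ffar2 and Hcar2 values of the combination group did not meet this criterion, which sets an extreme only against its nearest neighbour. Replicates 2 and 5 were both high, so the criterion cannot decide whether they stand apart.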

How the results depend on the processing

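Of the fold changes recomputed under other settings, leaving out single libraries aside, 232 kept their direction and side of the threshold, 21 changed sign and 8 passed a threshold missed before. With weights per library, in which combination replicate 5 had a weight of 0.126, these passed: Ffar2 against control (1.28), propionate (1.41) and butyrate (1.06) and in the interaction (1.19), and Hcar2 against control (1.12), against propionate (1.03) and in the interaction (0.78). The same weights called 1018 genes higher and 4768 lower in combination against control, 4818 higher and 208 lower against propionate, 562 and 10 against butyrate and 10100 and 882 in the interaction, where the reported fit called 0 in each. In combination against control, median-of-ratios scaling called 35 higher and 0 lower, and quantile normalization 40 higher and 1 lower. Neither scaling called a gene in the other comparisons. Ffar2 in propionate against control turned positive with median of ratios (0.054), quantile normalization (0.22) and the pan-leukocyte score (0.057). Or51e2 in combination against control turned positive with quantile normalization (0.067), weights (0.028), the pan-leukocyte score (0.079) and the neutrophil score (0.15), and in butyrate against propionate turned negative with weights (-0.11). With the pan-leukocyte score, Or51e2 was -0.012 in propionate against control and 0.090 in combination against propionate, and Hcar2 in combination against control passed (0.70). With the neutrophil score, Ffar2 in the combination was -0.12 against control and -0.14 against butyrate, Or51e2 against propionate was 0.072 and the Hcar2 interaction was -0.10. With the adipocyte score, Hcar2 was -0.0051 in propionate and -0.018 in butyrate against control and -0.013 between them, and Ffar2 in butyrate against control was -0.28. Without combination replicates 2 and 5 the Hcar2 interaction was -0.058. The cause of these changes was not tested. Leaving out single libraries gave -0.011 to 0.18 for Ffar2 in butyrate (negative without butyrate replicate 3) and -0.14 to 0.015 in propionate against control (positive without control replicate 3). It gave -0.070 to 0.12 for Hcar2 in butyrate against propionate, negative without propionate replicate 1, propionate replicate 5 or butyrate replicate 6. For Or51e2 it gave -0.20 to 0.026 in combination (positive without control replicate 3) and -0.061 to 0.17 in propionate against control (negative without control replicate 2 or propionate replicate 6). For combination against control, Ffar2 ran from 0.72 to 1.31 and Hcar2 from 0.67 to 1.09, lowest without replicate 5, and neither passed. Of the correlations recomputed, 96 kept sign and call, 23 lost their call, 7 changed sign and 2 passed only there. Ffar2 with the neutrophil score no longer passed at rho 0.535 (without the 2 farthest libraries, which are combination replicates 2 and 5), 0.444 (high Wt1) and 0.703 (low Wt1). Ffar2 with T cells was -0.0661 by median of ratios and -0.0283 without the 2 libraries. By median of ratios Hcar2 passed with neutrophils (0.524) and turned with monocytes and macrophages (-0.0791) and T cells (-0.0661), and Or51e2 passed with T cells (-0.480). Or51e2 no longer passed with the pan-leukocyte score at -0.600 (2 farthest), -0.621 (combination replicates 2 and 5), -0.681 (high Wt1) and -0.225 (low Wt1), or with monocytes and macrophages at -0.573, -0.644 and -0.126 for the last 3. Or51e2 with adipocytes was -0.547 (high Wt1) and -0.280 (low Wt1), and with smooth muscle -0.0879 (low Wt1). Without single libraries, rho ran from 0.345 to 0.502 for Hcar2 with neutrophils (passing without butyrate replicate 3), from -0.548 to -0.390 for Or51e2 with T cells (passing without control or propionate replicate 2), from -0.580 to -0.414 with neutrophils (passing without butyrate replicate 3 or combination replicate 1), from -0.0242 to 0.135 with adipocytes (negative without control replicate 6) and from 0.469 to 0.651 with smooth muscle (lost without any of 8 libraries). Replicate numbers were not taken to pair the samples, under a strict rule that every same-numbered pair correlate over 0.1. Deviations of same-numbered libraries correlated with a median of -0.073 by title (16 of 36 pairs over 0.1). By library number the median was 0.239 (18 of 27 pairs over 0.1, against a median of -0.059 for other pairs). Libraries of the same library number may thus share variation that the reported fit leaves out. With the block by title number, combination against control was 1.08 for Ffar2 (adjusted p of 0.388 in limma) and 0.95 for Hcar2 (0.335), and no receptor's call changed. With the block by library number they were 1.07 (0.104) and 0.91 (0.0907), 181 genes were called higher and 7722 lower in butyrate against control and 5383 higher and 43 lower in the interaction, and signs turned for Or51e2 in propionate against control (-0.014) and Hcar2 in butyrate against propionate (-0.0033). With a filter of TPM at least 5 no receptor was left to test. Without any filter Ffar3 in combination against control was 0.04 ± 0.04 (SE), with an adjusted p of 0.675 in limma. Depth is unknown, so the counting error of values near 1 TPM cannot be given.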

Other observations

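Hcar2 was related to cytotoxic lymphocyte genes over the libraries with a Wt1 TPM of at least 100, which hold most control libraries and few treated ones. Over those 10 libraries its rho with the NK and cytotoxic score was 0.891 (permutation p of 0.00125, adjusted p of 0.0488 over 39 relations) and its r was 0.876 (adjusted permutation p of 0.0411). In the 13 libraries below that level, without combination replicate 5, rho was 0.121, and over all 24 it was 0.317 (adjusted permutation p of 0.286). By median of ratios the value over 24 libraries was -0.007. In the high-Wt1 libraries, Hcar2 was at 0.64 to 1.03 TPM in control and 0.98 in butyrate replicate 2. It was at 1.48 and 1.10 in propionate replicates 3 and 4 and at 1.41 and 1.52 in combination replicates 3 and 4. The part of treatment in this rho was not tested. Within groups rho was 0.0857 in control, 0.0857 in propionate, -0.543 in butyrate and 0.714 in combination (exact permutation, none passing). The division by Wt1 was chosen after seeing the data, and the difference between its sides was not tested.

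Ffar2 was related to the neutrophil score in all 6 propionate libraries in strict rank order, with a rho of 1 (exact permutation p of 0.00278, adjusted p of 0.433 over 156 relations), where Ffar2 ran from 0.37 to 1.12 TPM. With group means removed, its rho with the adipocyte score over 24 libraries was 0.750 (adjusted permutation p of 0.00078). This value includes combination replicates 2 and 5 and was not recomputed without them. No relation of Ffar2 with the adipocyte score inside a single group passed adjustment.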
